A study of Callithrix jacchus with 54 samples.

Results

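Glycolysis and the response to low oxygen were followed through the differentiation of common marmoset embryonic stem cells (cjESCs) toward primordial germ cell-like cells (PGCLCs), with genes chosen by name. The list held 38 genes: 2 glucose transporters, 15 glycolysis enzymes, 6 genes of lactate and pyruvate handling and 15 genes of the hypoxia response. Of these, 34 were found among the 14812 genes of the expression table, and 32 passed a filter on low values and were tested with 11197 genes in all. HK2, SLC2A3, BNIP3L and ADM are not analysed here. P4HA2, at most 1.53 TPM (a transcript abundance scaled for length and library), and KDM3A, at most 0.26 TPM, were below the filter. CA9, the carbonic anhydrase often used as a marker of hypoxia, passed it in name only, at 0 to 1.98 TPM.

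The data were 54 libraries, 2 for each of 27 conditions. All cells came from the line CMES40 with the reporters BLIMP1-tdTomato and NANOS3-eGFP. A transgenic line, labelled with the genotype rtTA, tetO-BLIMP1, SOX17-GR and DD-TFAP2C, was kept in the medium DK20FA and then aggregated in BLSE (BMP4, LIF, SCF and EGF with a Rock inhibitor), in BLSE with enforced SOX17 (SOX17 + BLSE), or in the same without BMP4 (SOX17 + LSE). SOX17 was switched on with dexamethasone, a glucocorticoid, which was given in no other condition, so SOX17 and dexamethasone cannot be told apart. The line labelled wild type was kept in the medium PESFA, pre-treated for a day on fibronectin with IM12, a WNT agonist, and activin A, and aggregated in BLSE with the WNT inhibitor IWR1 (BLSE + IWR1) or with IWR1 and BMS493, a retinoic acid receptor inverse agonist (BLSE + IWR1 + BMS). In both media the cjESCs were kept on mouse embryonic fibroblast feeders. Pre-treatment also took the cells off these feeders into another base medium with a Rock inhibitor. These changes cannot be told apart from IM12 and activin A. Aggregates were sampled at 12, 24, 48 and 96 h. BLSE + IWR1 cells were also taken at day 6, and after aggregation with mouse female gonadal somatic cells in xenogeneic reconstituted ovaries (xrOvaries) at days 20, 40 and 70. Cells were sorted for TRA-1-60 before aggregation, were taken unsorted at 12, 24 and 48 h and in BLSE at 96 h, and were sorted for tdTomato in all later or other 96 h samples. Medium and line therefore cannot be told apart, and from 48 to 96 h time and sorting cannot either, except in BLSE.

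Glycolysis breaks glucose down to pyruvate in the cytosol. Glucose enters through transporters such as SLC2A1, and lactate dehydrogenase turns pyruvate into lactate, which leaves through monocarboxylate transporters. When oxygen is low, the prolyl hydroxylases EGLN1 and EGLN3 no longer mark HIF1A and EPAS1 for destruction. Paired with ARNT, these factors raise many glycolysis genes and the angiogenic ligand VEGFA. They also raise the kinase PDK1, which inhibits pyruvate dehydrogenase and so holds back pyruvate oxidation, and brakes on the response such as EGLN3 itself. Pluripotent cells are known for high glycolysis. The cjESCs were maintained under reduced oxygen, and the oxygen used for pre-treatment and aggregates is not given in the sources used here.

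Values are TPM as the authors made them, which scale for transcript length, so that levels can be set beside each other between genes. Differences were tested as log2(TPM + 1) with limma on all 54 libraries, and a gene is called where its p, adjusted by Benjamini-Hochberg over the 11197 genes, is under 0.01. The log2(TPM + 1) scale understates changes of weakly expressed genes. Means are given ± SD with n = 2 libraries. For 2 libraries against 2, the smallest p of an exact permutation test is 0.33, so each call uses the spread between duplicates in all 27 conditions together. The study describes its samples as biological duplicates. The TPM of the shared genes summed to between 790300 and 839203 per library, and TPM hold no read totals, so depth is unknown. In bulk RNA, fewer expressing cells and less RNA per cell cannot be told apart. Processed pseudogenes or near-identical copies are common for GAPDH, PGK1, LDHA, PGAM1, ENO1, ALDOA, TPI1 and PKM, and reads shared with them make those levels uncertain.

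The libraries of PESFA and of pre-treated cells stood apart in transcripts that mark feeder or stromal cells. The feeders were mouse embryonic fibroblasts, pre-treatment was on fibronectin, and reads were aligned to the marmoset genome. Which cells these transcripts came from was not tested, so their sum is not a measure of feeder cells. Over 9 such markers the summed level was 237 to 282 TPM in DK20FA, 1737 to 2991 TPM in PESFA and 2519 to 4763 TPM after pre-treatment. It was 1249 to 1935 TPM in the unsorted BLSE cells at 96 h, 81.4 to 527 TPM in the other libraries up to day 6 and at most 36.6 TPM in xrOvaries. COL1A1, a collagen chain of fibroblasts, was at 41.8 and 83.6 TPM with DK20FA, at 1598 and 878 TPM with PESFA and at 1385 and 2715 TPM in pre-treated cells. In BLSE at 96 h COL1A1 was at only 9.85 ± 0.721 TPM. Most of the sum there was DCN, another of the markers, at 1378 ± 459 TPM. These values move with results below, and their part in them was not tested except where a value is given. In xrOvaries, the markers of gonadal somatic cells summed to at most 3.62 TPM over the 6 of 8 listed genes that had a row. That highest sum was in day 20 replicate 2, with FOXL2 at 1.56 TPM and STAR at 2.06 TPM. The gonadal somatic cells were from mouse, and reads were aligned to the marmoset genome. A low sum therefore does not show that these cells were absent.

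Among the enzymes, the most abundant was GAPDH (gene 100412621), which makes the first NADH of the pathway, at 1405 to 4444 TPM over the 54 libraries. PGAM1 (gene 100400929), phosphoglycerate mutase, ranged from 365 to 1714 TPM, ALDOA (gene 103796602), the aldolase, from 246 to 1182 TPM and PGK1 (gene 100392550), the first step that yields ATP, from 138 to 1190 TPM. Phosphofructokinase, the committed step, was present as PFKP (median 64 TPM) and PFKL (median 70 TPM), with PFKM at no more than 2.54 TPM. ENO1, which in most cells is the main enolase, had an unusually low median of 19.2 TPM, and ENO2 a median of 11.5 TPM. The glucose transporter SLC2A1 (gene 100404544) ranged from 24.7 to 1333 TPM.

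Of the 32 tested members, 17 had their highest mean in one of the cjESC media, 12 of them in PESFA, and 17 had their lowest mean in an xrOvary sample. The share of all tested genes with extremes in these conditions was not counted, so these counts only describe the members. LDHB had its highest mean at day 40 in xrOvaries, and PFKL its lowest in DK20FA. The heat map of the tested members shows the xrOvary columns as the darkest blue for SLC2A1, PFKP, ENO1, ENO2, LDHA, VEGFA and ANGPTL4.

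**Figure D1:**
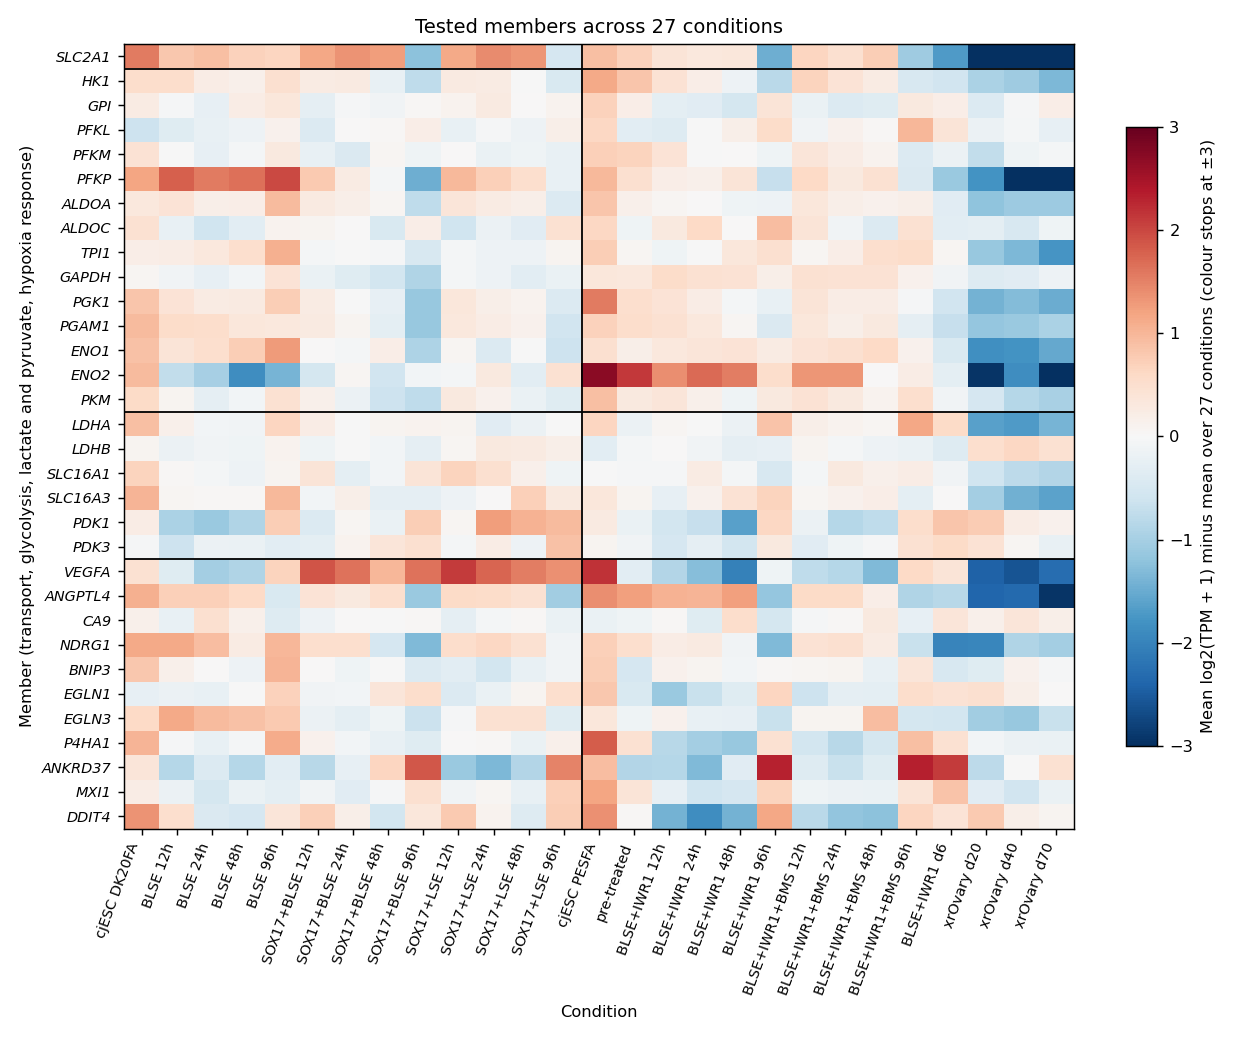
Mean log2(TPM + 1) of each of the 32 tested members (rows, in the order transport, glycolysis, lactate and pyruvate, hypoxia response) in 27 conditions (columns, 2 libraries each), minus the member's mean over all conditions. Red is above and blue below that mean, and the 3 columns at the far right, the xrOvaries, hold the lowest mean of 17 members. The share over all tested genes was not counted.

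VEGFA (gene 100389629), the secreted ligand that draws in blood vessels, varied from 1.4 to 95.3 TPM. Its highest level was in PESFA, at 55.8 and 95.3 TPM, and the next in the 8 SOX17 conditions, with means from 32.3 ± 2.38 to 69.4 ± 2.5 TPM. Between 20 and 26 TPM lay BLSE at 96 h, BLSE + IWR1 + BMS at 96 h, cjESCs in DK20FA and day 6 cells, whose neighbours in this order overlapped. Pre-treated cells and the cells of the first 48 h without SOX17 lay at 3.12 ± 1.22 to 12.4 ± 0.693 TPM, and the xrOvary cells at 1.76 ± 0.509 to 2.47 ± 0.884 TPM. In the order of the 27 means, 18 of 26 neighbouring pairs had overlapping libraries.

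**Figure D2:**
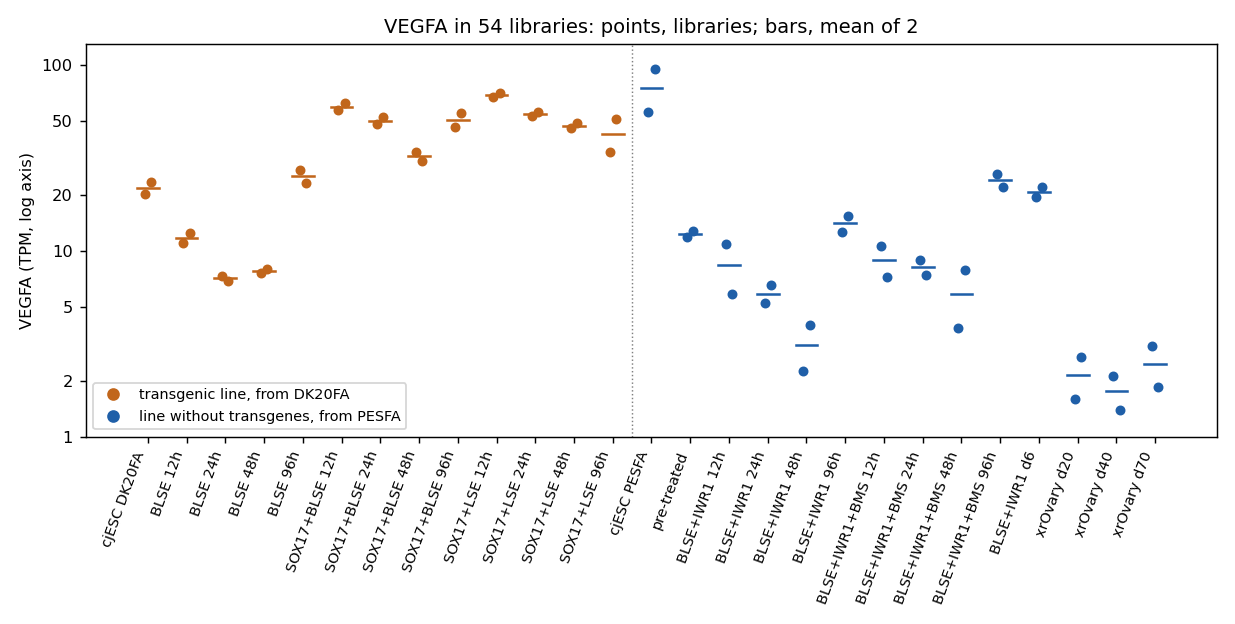
VEGFA in TPM on a log axis for each library (points) and the mean of 2 (bars) in 27 conditions, orange for the transgenic line and blue for the line without transgenes. PESFA, at 55.8 and 95.3 TPM, and the 8 SOX17 conditions sit highest, and the xrOvary libraries, at 1.4 to 3.09 TPM, lowest.

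The media were compared before differentiation. Of the 32 members, 10 were higher and 2 lower in PESFA than in DK20FA, where 8.09% of all tested genes were higher and 8.73% lower. The higher ones were 6 of 14 glycolysis enzymes and 4 of 11 hypoxia-response genes. VEGFA was at 20.2 and 23.6 TPM in DK20FA, a log2 difference of 1.70 (SE 0.27, adjusted p = 7.57e-06). ENO2 (gene 100409160), the neuronal enolase, was at 13.6 and 37.9 TPM in DK20FA and 111 and 55.7 TPM in PESFA, a difference of 1.74 (SE 0.39). Its libraries did not overlap, but the call was lost without DK20FA replicate 1 (1.03) or PESFA replicate 1 (1.25). PFKL rose by 1.24, EGLN1 by 1.06 and MXI1, an antagonist of MYC, by 0.96, and EGLN1 and MXI1 lost their calls without the same libraries. The lower ones handle lactate. SLC16A1 (gene 100398254), the monocarboxylate transporter MCT1, was at 345 and 305 TPM in DK20FA and 221 and 182 TPM in PESFA (−0.69, SE 0.12), and LDHB differed by −0.40. LDHB lost its call without DK20FA replicate 1 (−0.29), without PESFA replicate 2 (−0.31) and after median-ratio scaling (−0.28). Without DK20FA replicate 1 the count was 5 and without PESFA replicate 1 it was 6. Of the 9 feeder or stromal markers 7 were higher in PESFA, and 5 of 7 immediate-early genes, which respond to stress and handling. Their part in these differences was not tested.

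Pre-treatment followed. Few genes of the whole table moved in this day. Of the 11197 tested, 0.214% (24 genes) were lower and 0.0893% (10 genes) higher, and 10 of the 32 members were among the lower ones. They were 5 of 11 hypoxia-response genes, 4 of 14 glycolysis enzymes and 1 of 6 genes of lactate and pyruvate. The median log2 difference was −0.49 over the members and 0.03 over all tested genes, and 30 of 32 members were below 0. VEGFA fell from 55.8 and 95.3 TPM to 11.9 and 12.8 TPM. Both pre-treated libraries lay below both PESFA libraries, a log2 difference of −2.47 (SE 0.27, adjusted p = 3.08e-07), and over the alternatives other than a fit of these 4 libraries alone the call held between −2.85 and −2.09. That VEGFA falls here was known when it was chosen as the marker of the list. The other members were also chosen with earlier results of these data known, so the count of members is a description.

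The other hypoxia-response genes that fell included enzymes and stress regulators. P4HA1 (gene 100393458), a collagen prolyl hydroxylase, was at 250.03 and 195 TPM in PESFA and 75.4 and 95.5 TPM after pre-treatment, a difference of −1.37 (SE 0.22). DDIT4 (gene 100397684), an inhibitor of mTORC1, was at 170 and 92.8 TPM and then 40.2 and 61.2 TPM (−1.32, SE 0.23). EGLN1, the oxygen sensor, went from 45.3 and 28.6 to 12.5 and 16.2 TPM (−1.28, SE 0.22). BNIP3 (gene 100415154), a mitophagy receptor, was at 400.4 and 255 TPM in PESFA and at 141 and 130 TPM in pre-treated cells (−1.23, SE 0.18, adjusted p = 6.75e-05). None of these groups overlapped, and the share of all tested genes without overlap was not counted.

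Of the glycolysis enzymes, PGK1, PFKL, TPI1 and ALDOA fell. PGK1 was at 1190 and 1139 TPM in PESFA and 557 and 563 TPM after pre-treatment, a difference of −1.05 (SE 0.10, adjusted p = 6.22e-08). PFKL, the liver phosphofructokinase, fell by 0.93, TPI1 by 0.68 and ALDOA by 0.68 on the log2 scale. LDHA (gene 100404572), which makes lactate, fell by 0.82. GAPDH was at 3458 ± 289 TPM in PESFA and 3419 ± 147 TPM after pre-treatment and was not called. SLC2A1 was at 804 ± 220 and 684 ± 107 TPM and was not called either. From a list of 24 tested hypoxia targets outside the members, 2 were called, FAM162A (−0.97) and ERO1A (−0.94), where 0.214% of all tested genes were lower.

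The summed feeder or stromal level was 1737 to 2991 TPM in PESFA and 2519 to 4763 TPM after pre-treatment, which overlap. Of the 9 markers 0 were called by limma (1 at an unadjusted p under 0.05), and the part of these transcripts in the falls was not tested. PESFA is the higher group both here and against DK20FA, and the comparisons share its libraries. DK20FA cells, with 21.9 ± 2.37 TPM of VEGFA, 713 ± 168 TPM of PGK1 and 1486 ± 278 TPM of LDHA, are the other cjESC level. Without pre-treated replicate 1 the count was 4 and without PESFA replicate 1 it was 6. DDIT4 and EGLN1 then lost their calls (−1.03 and −1.10 without the first, −0.89 and −0.96 without the second), as did P4HA1 without pre-treated replicate 1 (−1.20).

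**Figure D3:**
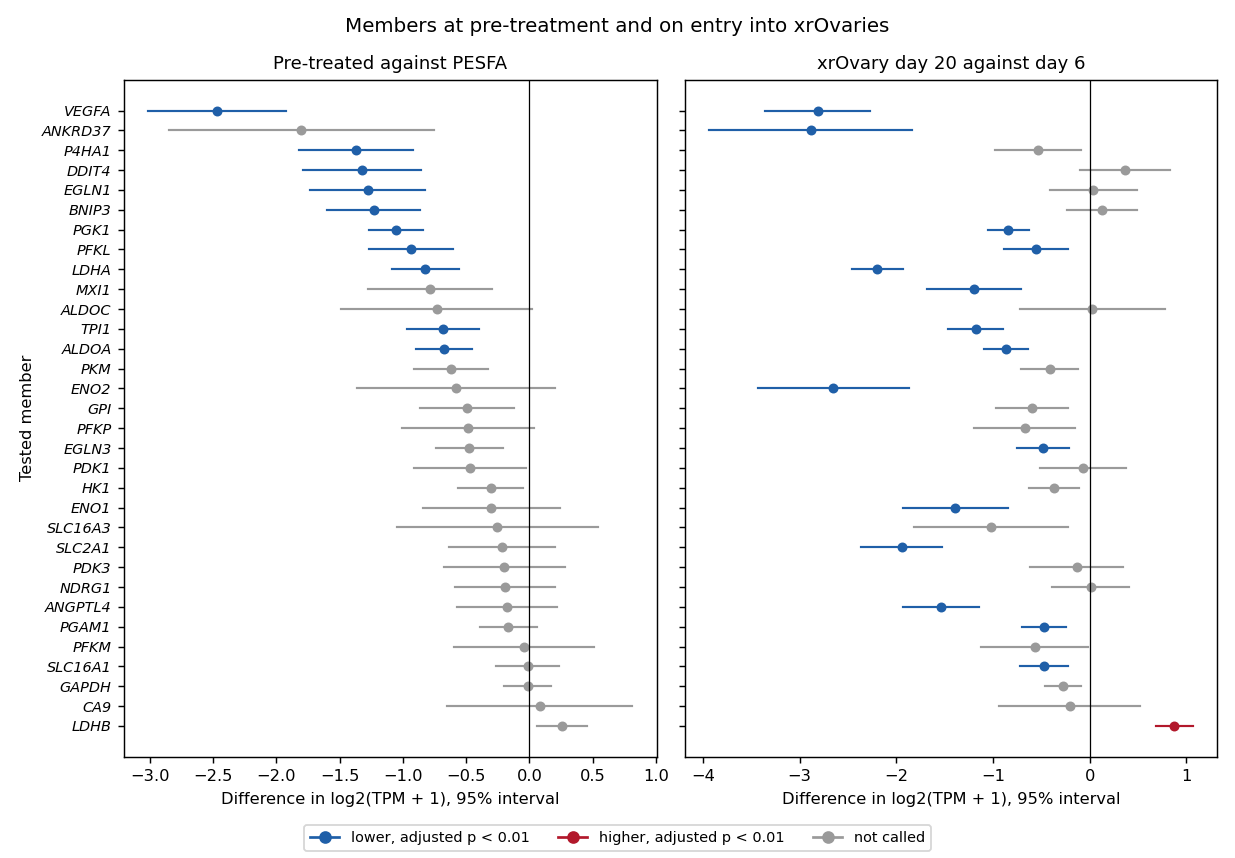
Difference in log2(TPM + 1) with its 95% interval for each of the 32 tested members, pre-treated cells against PESFA (left) and xrOvary day 20 against day 6 (right), with blue for called lower, red for called higher and grey for not called. All 10 called members on the left are lower, with VEGFA at −2.47, and on the right 15 are lower and LDHB is higher.

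The first 12 h in aggregates were compared with the starting cells of each line. In BLSE, 1 member was higher and 6 lower than in DK20FA, against 4.23% and 3.18% of all genes. With SOX17 + BLSE the counts were 1 and 7 (background 5.89% and 3.92%), and with SOX17 + LSE 1 and 6 (background 5.25% and 3.1%). Here and below, a background is the share of all tested genes called higher, then lower. These 3 comparisons share the DK20FA libraries. LDHA was at 1289 and 1683 TPM in DK20FA, 909 and 837 TPM in BLSE. With enforced SOX17 it was at 924 and 927 TPM, and without BMP4 at 879 and 804 TPM. It was lower in each, by −0.75, −0.67 and −0.81 (SE 0.13). PGK1 fell in each as well, by 0.43, 0.60 and 0.50, and P4HA1 by 1.06, 0.90 and 1.01.

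ENO2 fell in BLSE (−1.69) and in SOX17 + BLSE (−1.47). PDK1 fell in BLSE, from 26.4 and 37.8 TPM to 13.4 and 13.8 TPM (−1.16, SE 0.22), and SLC16A1 by 0.63. In both SOX17 conditions, PGAM1 (−0.68 and −0.63) and BNIP3 (−0.81 and −1.12) were lower. EGLN3 (gene 100389821), a HIF prolyl hydroxylase that HIF itself induces, rose in BLSE from 136 and 158 TPM to 224 and 204 TPM (0.54, SE 0.13) and fell in both SOX17 conditions (−0.76 and −0.63). VEGFA was at 11.1 and 12.5 TPM in BLSE, which was not called (−0.84, adjusted p = 0.0309). With enforced SOX17 it rose to 57 and 62.4 TPM (1.41, adjusted p = 0.000203), and to 67.6 and 71.1 TPM where BMP4 was left out (1.62, adjusted p = 3.97e-05).

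DK20FA replicate 2, at 1683 TPM of LDHA and 463 TPM of BNIP3 against 1289 and 247 TPM in replicate 1, was the higher of its pair. Without it the counts were 2, 3 and 3, and the calls of ENO2 (−0.98 and −0.77), P4HA1 (−0.78, −0.62 and −0.73), PDK1 (−0.91), LDHA in BLSE (−0.56), BNIP3 (−0.36 and −0.66) and EGLN3 in SOX17 + LSE (−0.52) were lost. Without BLSE replicate 1 the count in BLSE was 4, without BLSE replicate 2 it was 2, and without SOX17 + BLSE replicate 2 the count there was 5. ENO2 and EGLN3 lost their calls in BLSE without either BLSE library (ENO2 −1.78 and −1.60, EGLN3 0.48 and 0.61), and EGLN3 also without DK20FA replicate 1 (0.43). SLC16A1 (−0.58) and P4HA1 (−0.88) lost theirs without BLSE replicate 2, and SLC16A1 without DK20FA replicate 1 (−0.54). In SOX17 + BLSE, ENO2 lost its call without either library (−1.69 and −1.26), and P4HA1 (−0.68) and BNIP3 (−0.70) without replicate 2. In SOX17 + LSE, P4HA1 (−0.86) lost its call without replicate 2 and EGLN3 (−0.60) without replicate 1.

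After pre-treatment the first 12 h moved fewer members. In BLSE + IWR1, 0 were higher and 2 lower than in pre-treated cells (background 1.97% and 4.81%), and in BLSE + IWR1 + BMS 0 were higher and 1 lower (background 2.86% and 3.67%). DDIT4 fell in BLSE + IWR1 from 40.2 and 61.2 TPM to 16.9 and 18.2 TPM (−1.45, SE 0.23, adjusted p = 1.77e-05). P4HA1 fell in both, from 75.4 and 95.5 TPM to 41.4 and 28.1 TPM (−1.29) and to 43.2 and 40.8 TPM (−1.00). VEGFA was at 11 and 5.83 TPM in BLSE + IWR1 and 10.6 and 7.22 TPM with BMS493 and was not called (−0.56 and −0.45). These comparisons share the pre-treated libraries, and 6 of 9 feeder or stromal markers fell in each, a change whose part was not tested. P4HA1 lost its call in BLSE + IWR1 without BLSE + IWR1 replicate 2 (−1.02), which left a count of 1. With BMS493 it lost the call without pre-treated replicate 2 (−0.83) or either 12 h library (−1.04 and −0.96), which left a count of 0, and without pre-treated replicate 1 the count was 2.

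Whether the first 12 h differ between BLSE + IWR1 and BLSE was tested as a difference of the 2 changes. Of the 32 members 2 were called, both with a difference above 0 (background 1.61% and 4.55%). LDHA changed by 0.25 after pre-treatment, from 730 and 663 TPM to 818 and 838 TPM, and by −0.75 in BLSE, a difference of 1.01 (SE 0.18, adjusted p = 0.000169). BNIP3 changed by 0.64, from 141 and 130 TPM to 223 and 201 TPM, and by −0.66 in BLSE, a difference of 1.30 (SE 0.25, adjusted p = 0.00041). At 12 h the groups lay close, at 828 ± 14.4 and 873 ± 51.3 TPM for LDHA and 212 ± 15.5 and 215 ± 17.9 TPM for BNIP3. Without DK20FA replicate 2, BNIP3 lost its call (0.85) and the count was 1. The comparison also differs in line, starting medium, pre-treatment and IWR1, and 7 of 9 feeder or stromal markers differed in it.

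From 12 to 48 h the called members were all lower. The counts were 2 in BLSE (background 2.14% and 2.47%), 8 in SOX17 + BLSE (background 6.56% and 4.21%) and 4 in BLSE + IWR1 (background 4.02% and 2.38%). In BLSE, DDIT4 was at 59.9 and 79.8 TPM at 12 h and 39.5 and 29.3 TPM at 48 h (−1.00), and NDRG1 (gene 100401077), a stress-induced gene of differentiating cells, at 94.6 and 125 TPM and then 56.2 and 60.8 TPM (−0.89). Both fell in SOX17 + BLSE as well, by 1.25 and 1.01. There, PKM (gene 100412392), the pyruvate kinase that closes the pathway, also fell from 75 and 79.9 TPM to 42.2 and 47.3 TPM (−0.78, SE 0.14), PGAM1 by 0.57 and PGK1 by 0.49.

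In BLSE + IWR1, VEGFA fell from 11 and 5.83 TPM to 2.26 and 3.98 TPM (−1.17, SE 0.27, adjusted p = 0.00257), the lowest level before xrOvaries. PDK1 fell there from 18.9 and 17 TPM to 7.03 and 9.09 TPM (−1.07), HK1, the main hexokinase of the table, by 0.58 and PGK1 by 0.46. VEGFA was not called in BLSE (−0.54) or SOX17 + BLSE (−0.87, adjusted p = 0.0197). These small counts depended on single libraries. In BLSE the count was 0 without 12 h replicate 2 or 48 h replicate 2 and 1 without 48 h replicate 1, where DDIT4 stood at −0.80 and −0.79 in the former and NDRG1 at −0.69, −0.94 and −0.83. In SOX17 + BLSE it was 4 without 12 h replicate 2, 48 h replicate 1 or 48 h replicate 2. PGK1 there lost its call without 12 h replicate 2 (−0.39) or 48 h replicate 2 (−0.45) and DDIT4 without 48 h replicate 1 (−1.05). In BLSE + IWR1 it was 0 without 12 h replicate 1 or 48 h replicate 1, where VEGFA stood at −0.76 and −0.86, PDK1 at −1.00 and −0.91 and HK1 at −0.55 and −0.38. It was 2 without 12 h replicate 2, where HK1 (−0.61) and PGK1 (−0.41) lost their calls, and PGK1 did so without each of the other libraries too, at −0.50 to −0.43.

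The effect of enforced SOX17 was read against BLSE at the same time. At 12 h, a comparison chosen after its values were seen, 1 member was higher and 1 lower (background 1.61% and 0.795%). VEGFA was higher with SOX17, at 57 and 62.4 TPM against 11.1 and 12.5 TPM (2.25, SE 0.27, adjusted p = 4.55e-07), and EGLN3 lower, at 90.7 and 81.7 TPM against 224 and 204 TPM (−1.30, SE 0.13). Of 7 tested targets of the glucocorticoid receptor, 0 were called here by limma (1 at an unadjusted p under 0.05), while at 48 h 2 were higher, among them TAT (4.67), and 1 lower, FKBP5 (−0.76). At 48 h, 1 member was higher and 8 lower (background 10.3% and 6.37%). VEGFA was again the higher one, at 34 and 30.6 TPM against 7.62 and 7.98 TPM (1.92, SE 0.27, adjusted p = 7.61e-07). PFKP (gene 100403074), the platelet phosphofructokinase, was lower, at 50.3 and 46.1 TPM against 155 and 162.5 TPM (−1.70, SE 0.26), and EGLN3 was at 84.6 and 91 TPM against 185 and 173 TPM (−1.02). NDRG1 (−0.75), PGAM1 (−0.64) and PKM (−0.55) were also lower, as were TPI1, PGK1 and GAPDH. NDRG1 lost its call without any 1 of the 4 libraries (−0.81 to −0.69), PKM without BLSE replicate 1 (−0.43) or either SOX17 + BLSE library (−0.47 and −0.63), and PFKP with a pseudocount of 0.1 (−1.72).

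At 96 h the comparison of SOX17 + BLSE with BLSE set sorted tdTomato-positive cells against all cells, and 29.3% of all genes were higher and 16.1% lower. Of the members, 5 were higher and 18 lower, among the lower ones 9 of 14 glycolysis enzymes and SLC2A1. PFKP was at 16.7 and 18.3 TPM against 205 and 194 TPM (−3.44, SE 0.26, adjusted p = 5.34e-14). NDRG1 was at 17.3 and 20.9 TPM against 97.7 and 100.27 TPM (−2.32), ENO1 lower by 2.21, and PGK1 at 182 and 173 TPM against 731 and 582 TPM (−1.87, adjusted p = 2e-17). Higher were ANKRD37 (gene 100415067), a small ankyrin-repeat protein and HIF target, at 15 and 21.1 TPM against 3.52 and 2.82 TPM (2.18), ENO2 (1.31), VEGFA (0.97), PDK3 (0.80) and MXI1 (0.76). Under median-ratio scaling the median of all genes shifted by −0.24 here, and VEGFA (0.67), ENO2 (1.04), PDK3 (0.51) and MXI1 (0.48) lost their calls. Quantile normalization also took the calls of ENO2 (0.97), PDK3 (0.63) and MXI1 (0.55). Of the feeder or stromal markers 4 were lower and 2 higher in the sorted cells, whose part was not tested. Without SOX17 + BLSE replicate 2 the count was 15, and VEGFA (0.85), ANKRD37 (1.94), PDK3 (0.71) and MXI1 (0.66) lost their calls. Without BLSE replicate 2, VEGFA (0.86), ENO2 (1.06), PDK3 (0.20) and MXI1 (0.44) did, and without SOX17 + BLSE replicate 1 so did ENO2 (1.08), PDK3 (0.89) and MXI1 (0.86).

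SLC2A1 was low in the sorted cells at 96 h. Up to 48 h it was at 463 to 1135 TPM in the aggregates. At 96 h it was at 150 and 216 TPM in SOX17 + BLSE, 254 and 343 TPM in SOX17 + LSE, 137 and 170 TPM in BLSE + IWR1 and 235 and 171 TPM in BLSE + IWR1 + BMS, each below every library of its own condition at 48 h. In BLSE, where all cells were taken, it was at 623 and 700.4 TPM at 96 h and 730.2 and 636 TPM at 48 h. ANGPTL4, a lipase inhibitor, lay at 18.3 ± 0.191 to 22.9 ± 7.38 TPM on average in the sorted 96 h groups, but in unsorted BLSE it was also lower at 96 h (25 and 37 TPM) than at 48 h (59 and 70.5 TPM). The time from 48 to 96 h in the 4 sorted conditions was not tested.

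**Figure D4:**
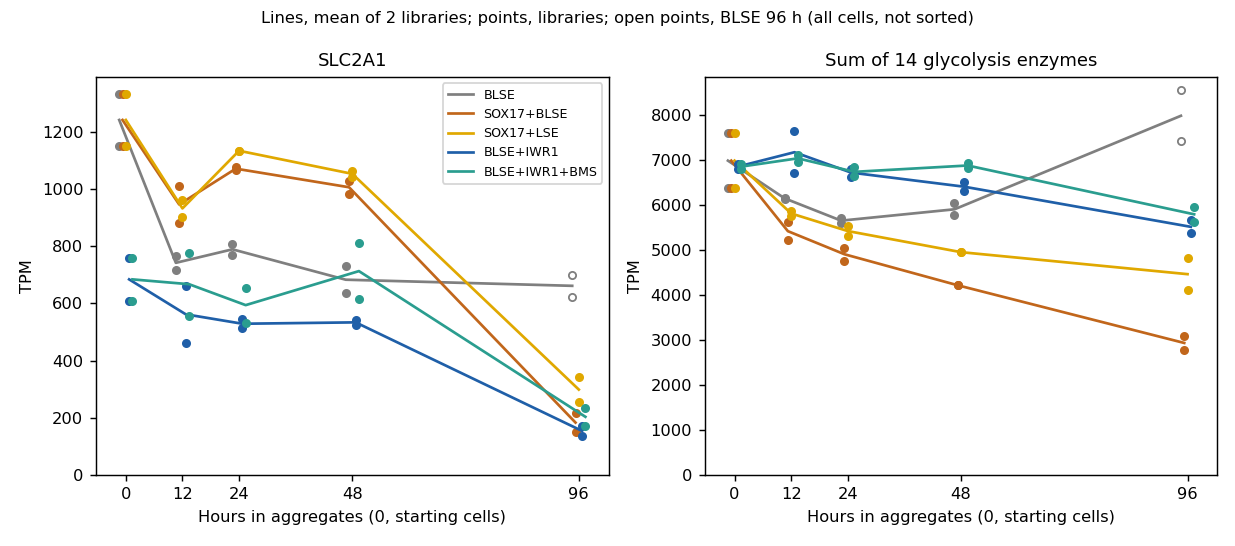
SLC2A1 (left) and the sum of 14 glycolysis enzymes (right) in TPM against hours in aggregates, with points for libraries, lines for the mean of 2 and 0 h for the starting cells (DK20FA for the transgenic line, pre-treated cells for the other). The 4 conditions sorted for tdTomato at 96 h reach 137 to 343 TPM of SLC2A1, and unsorted BLSE stays at 623 to 700.4 TPM.

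In BLSE, where sorting did not change, 12 members were higher and 1 lower at 96 h than at 48 h (background 3.55% and 5.88%), a comparison also chosen after its values were seen. PDK1 rose from 16.2 and 11.8 TPM to 49.2 and 42.7 TPM (1.66, SE 0.22, adjusted p = 4.48e-07), VEGFA from 7.62 and 7.98 TPM to 27.4 and 23.3 TPM (1.58, SE 0.27), P4HA1 by 1.18, BNIP3 by 1.16 and DDIT4 by 0.86. LDHA, ALDOA, NDRG1, TPI1, PKM, GAPDH and PGK1 rose by 0.76 or less. ANGPTL4 fell from 59 and 70.5 TPM to 25 and 37 TPM (−1.06). Of the feeder or stromal markers 4 rose and 3 fell over the same time, and their part was not tested. The count was 4 without 96 h replicate 1 and 8 without 48 h replicate 2. DDIT4 lost its call without 48 h replicate 2 (0.65) or either 96 h library (1.03 and 0.69), and P4HA1 (1.01) and ANGPTL4 (−0.78) without 96 h replicate 1.

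BMP4 was left out in SOX17 + LSE. Against SOX17 + BLSE, 4 members were higher and 0 lower at 48 h (background 3.4% and 4.61%), and 7 higher and 1 lower at 96 h (background 4.55% and 2.55%). PDK1 (gene 100402844) was at 53.4 and 59.7 TPM without BMP4 against 23.7 and 22.9 TPM with it at 48 h (1.24, SE 0.22, adjusted p = 7.73e-05). NDRG1 was higher at both times, at 70 and 66.9 TPM against 35.5 and 33.2 TPM (0.97) and at 38.6 and 53.9 TPM against 17.3 and 20.9 TPM (1.22). EGLN3 (0.59) and PGAM1 (0.42) were higher at 48 h. At 96 h PFKP was at 45.7 and 40.8 TPM against 16.7 and 18.3 TPM (1.25), PGK1 higher by 0.73, GAPDH by 0.69, PGAM1 by 0.56, TPI1 by 0.56 and LDHB by 0.45, and SLC16A1 lower by −0.50. VEGFA was not called at 48 h (0.53, 95% interval −0.01 to 1.07) or 96 h (−0.27, −0.81 to 0.28). At 48 h the count was 2 without either SOX17 + BLSE library and 1 without SOX17 + LSE replicate 1, and PGAM1 lost its call without any 1 library (0.38 to 0.46), NDRG1 without SOX17 + BLSE replicate 2 (0.93) or SOX17 + LSE replicate 1 (0.94) and EGLN3 without SOX17 + BLSE replicate 1 (0.53) or SOX17 + LSE replicate 1 (0.47). At 96 h it was 3 without SOX17 + LSE replicate 1, where PFKP (1.17), PGAM1 (0.32) and SLC16A1 (−0.42) lost their calls, and 5 without SOX17 + BLSE replicate 2, where PGAM1 (0.46) and SLC16A1 (−0.40) did. PFKP also lost its call without SOX17 + BLSE replicate 1 (1.19) and SLC16A1 without SOX17 + LSE replicate 2 (−0.58).

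BLSE + IWR1 was set against BLSE at 48 h, where 2 members were higher and 6 lower (background 11.2% and 10%). ENO2 was at 26.2 and 45.6 TPM against 1.98 and 2.82 TPM (3.40, SE 0.39, adjusted p = 1.15e-08), the largest rise of a member in any comparison, and GAPDH was higher by 0.50. PFKP was at 54.1 and 79.1 TPM against 155 and 162.5 TPM (−1.26), VEGFA at 2.26 and 3.98 TPM against 7.62 and 7.98 TPM (−1.13, adjusted p = 0.00118), EGLN3 lower by 1.12, P4HA1 by 1.08 and DDIT4 by 0.92. Line, starting medium and pre-treatment differed too and cannot be told apart from IWR1. The starting cells differed in ENO2, at 52.2 TPM on average after pre-treatment and 25.8 TPM in DK20FA. Without BLSE + IWR1 replicate 1 the count was 4, and VEGFA (−0.82), PFKP (−0.99) and DDIT4 (−0.95) lost their calls. VEGFA also did without BLSE replicate 2 (−1.10), and DDIT4 without BLSE replicate 1 (−0.71) or BLSE + IWR1 replicate 2 (−0.89).

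At 96 h both protocols give tdTomato-positive cells, and in BLSE + IWR1 9 members were higher and 2 lower than in SOX17 + BLSE (background 2.04% and 4.05%). The groups also differ in line, starting medium, pre-treatment, IWR1, enforced SOX17 and dexamethasone, which cannot be told apart. Of 14 glycolysis enzymes 7 were higher. GAPDH was at 3086 and 3041 TPM against 1535 and 1405 TPM (1.06, SE 0.09, adjusted p = 7.17e-10), PKM at 81.9 and 89.5 TPM against 43.9 and 37.6 TPM (1.06), TPI1 higher by 0.97, PGK1 by 0.93 and ENO1 by 1.17. LDHA (0.74) and P4HA1 (0.83) were higher as well. Lower were VEGFA, at 12.7 and 15.5 TPM against 46.3 and 55 TPM (−1.78, SE 0.27, adjusted p = 1.28e-05), and SLC16A1 (−0.86). ENO1 lost its call without either SOX17 + BLSE library (1.05 and 1.30) or BLSE + IWR1 replicate 2 (0.99).

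Adding BMS493 to BLSE + IWR1 moved 4 members at 48 h, 2 higher and 2 lower (background 2.87% and 1.96%), and 1, higher, at 96 h (background 0.438% and 0.295%). EGLN3 was at 175 and 194 TPM with BMS493 against 78.9 and 84.7 TPM without at 48 h (1.17, SE 0.13, adjusted p = 3.12e-07), and PDK1 was higher by 0.87. ANGPTL4 (gene 100415086) was at 44.3 and 53.1 TPM against 103 and 97.5 TPM (−1.03), and ENO2 lower by 1.52. At 96 h SLC16A1 was at 223 and 248 TPM against 142 and 149 TPM (0.69, SE 0.12). VEGFA was not called at 48 h (0.71, 95% interval 0.16 to 1.25) or 96 h (0.73, 0.19 to 1.27). At 48 h the count was 1 without BLSE + IWR1 + BMS replicate 1, where PDK1 (0.41), ENO2 (−1.46) and ANGPTL4 (−0.90) lost their calls. PDK1 also did without BLSE + IWR1 replicate 1 (0.71), and ENO2 without BLSE + IWR1 replicate 2 (−1.13) or BLSE + IWR1 + BMS replicate 2 (−1.58). At 96 h the count was 0 without BLSE + IWR1 replicate 1 (SLC16A1 0.66) or either BMS493 library (0.77 and 0.62).

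From 96 h to day 6 in BLSE + IWR1, 0 of the 32 members were called by limma (background 0.831% and 1.92%), although 14 had an unadjusted p under 0.05. The share of all tested genes under that unadjusted p was not counted. VEGFA was at 12.7 and 15.5 TPM and then 19.4 and 22.2 TPM (0.53, adjusted p = 0.282).

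Over the whole way from PESFA to day 6, 19 of 32 members were lower and 0 higher (background 24.9% and 20%), among them 11 of 14 glycolysis enzymes, 7 of 11 hypoxia-response genes and SLC2A1. The transporter was at 960.3 and 649 TPM in PESFA and 138 and 121 TPM at day 6 (−2.60, SE 0.21, adjusted p = 3.37e-13). ENO2 was at 111 and 55.7 TPM and then 11.1 and 7.21 TPM (−3.00), NDRG1 at 78.8 and 83.4 TPM and then 12.2 and 11.5 TPM (−2.68), ANGPTL4 lower by 2.24 and PGK1 by 2.14, and VEGFA by 1.77. Feeder or stromal markers were lower in 8 of 9, from a sum of 1737 to 2991 TPM to one of 92.3 to 114 TPM, and their part was not tested.

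Between day 6 and day 20 PGCLCs were placed with gonadal somatic cells. Of the 32 members 15 were lower and 1 higher (background 6.56% and 13.8%). The lower ones were 7 of 14 glycolysis enzymes, 5 of 11 hypoxia-response genes, 2 of 6 genes of lactate and pyruvate and SLC2A1. Day 20 replicate 2 stood apart from all other libraries, with 10146 genes above 0 against 11441 in its duplicate and 11627 or more in the other xrOvary libraries. Without it 12 members were called, and without its duplicate 11. Without it, LDHA stood at −2.27, VEGFA at −3.06, ENO2 at −1.99, SLC2A1 at −2.34 and LDHB at 0.90, each still called, and ANKRD37 at −1.31, not called. Its part in the other values at day 20 was not tested. LDHA was at 1224 and 1123 TPM at day 6 and 242 and 269 TPM at day 20, a difference of −2.20 (SE 0.13, adjusted p = 1.62e-15). LDHB (gene 118142861), whose subunit favours lactate as a substrate, was the one that rose, from 1077 and 1072 TPM to 2005 and 1943 TPM (0.88, SE 0.10, adjusted p = 4.46e-09). The ratio of LDHA to LDHB in TPM was 1.14 and 1.05 at day 6 and 0.12 and 0.14 at day 20, and it stayed at 0.11 to 0.16 at days 40 and 70. The lowest ratio in any earlier library of the line without transgenes was 0.497, in a pre-treated one.

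SLC2A1 went from 138 and 121 TPM to 24.7 and 43.4 TPM (−1.95, SE 0.21, adjusted p = 2.13e-09). VEGFA went from 19.4 and 22.2 TPM to 1.6 and 2.67 TPM (−2.82, SE 0.27, adjusted p = 1.76e-10). ENO2 was listed at 0 TPM in one day 20 library and at 1.52 TPM in the other (−2.65), and ANKRD37 at 0 and 7.9 TPM against 18.7 and 23.7 TPM (−2.89). ANKRD37 lost its call without xrOvary day 20 replicate 2, the library at 0 (−1.31). HK1, GAPDH, BNIP3, DDIT4 and EGLN1 were not called, with BNIP3 at 137 ± 6.53 TPM at day 6 and 150 ± 13.5 TPM at day 20. Day 20 differs from day 6 in time, in culture and in the cells around, which cannot be told apart.

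From day 20 to day 70 in xrOvaries, 1 member was higher and 2 lower (background 3.89% and 12.2%). PFKP went from 11.2 and 17 TPM to 0 and 1.27 TPM (−3.30, SE 0.26, adjusted p = 1.53e-12), and day 40, with a mean of 2.1 TPM, lay between. TPI1 fell by 0.64, with its call lost without day 20 replicate 1 (−0.51), after median-ratio scaling (−0.45) and after quantile normalization (−0.47). NDRG1 rose from 13.3 and 10.7 TPM to 23.7 and 23.9 TPM (0.94), with its call lost without day 20 replicate 2 (0.79). VEGFA stayed at 1.4 to 3.09 TPM over the 6 xrOvary libraries and was not called.

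**Figure D5:**
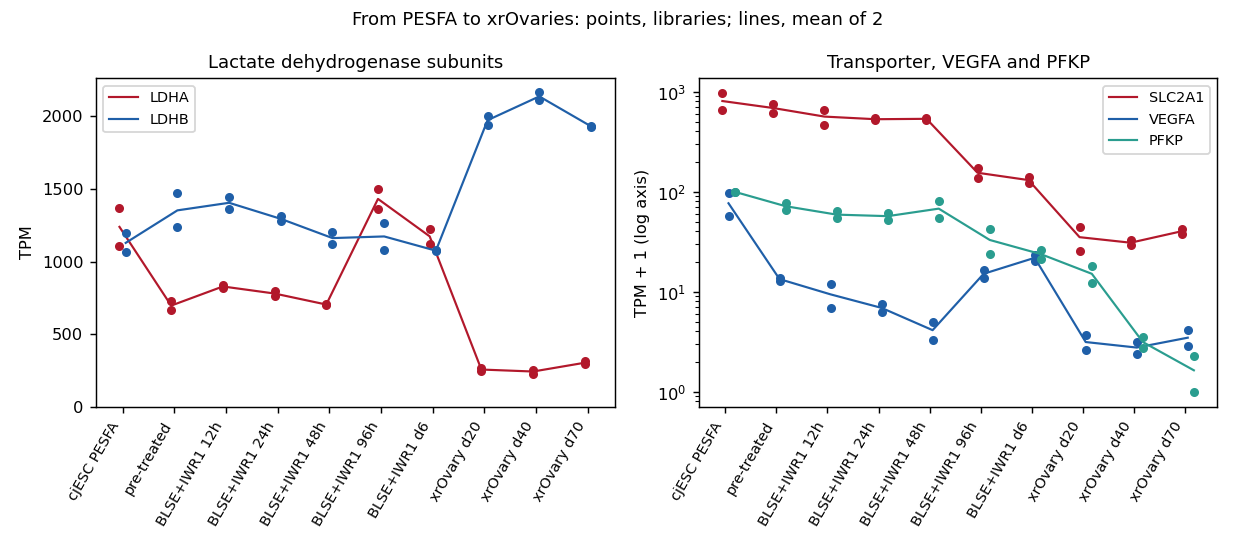
LDHA and LDHB in TPM (left) and SLC2A1, VEGFA and PFKP as TPM + 1 on a log axis (right) from PESFA through BLSE + IWR1 to xrOvaries, with points for libraries and lines for the mean of 2. LDHA drops from 1224 and 1123 TPM at day 6 to 242 and 269 TPM at day 20 while LDHB rises, and PFKP falls further to day 70.

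Counted over the 22 planned comparisons of conditions, PGK1 was called most often, in 13 (3 higher, 10 lower), followed by P4HA1 and VEGFA in 11 each. VEGFA was higher in 5 and lower in 6. Several of these comparisons share libraries, and genes with a small SE are called more easily. The same count was not made over all tested genes, so the counts are a description.

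The machinery that controls these genes was read from a list of 7. HIF1A was at 13.4 to 26 TPM on average in every condition, and ARNT, its partner, at 0.275 TPM or less. Whether the ARNT row captures the transcripts of this gene was not tested, so the low level does not show that ARNT was absent. EPAS1 (gene 100396711), another HIF alpha subunit, went from 4.12 and 6.9 TPM in DK20FA to 54.4 and 66.5 TPM after 12 h in BLSE (3.27) and stood at 179 and 165 TPM at 96 h. At pre-treatment HIF1A was at 17.2 ± 1.05 TPM before and 21.1 ± 2.31 TPM after. EPAS1 was at 12.9 ± 3.97 TPM before and 25.3 ± 7.64 TPM after (0.92, SE 0.29). Of the 5 tested genes of this list 0 were called by limma (1, EPAS1, at an unadjusted p under 0.05). From day 6 to day 20, EPAS1 went from 5 and 4.93 TPM to 13.2 and 14.5 TPM (1.31), whereas HIF3A, at 1.71 and 1.57 TPM and then 0.19 and 0 TPM, fell (−1.27).

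The receptors and relatives of VEGFA were read from a list of 9 genes. FLT1 (gene 100413680), a VEGF receptor that also acts as a decoy, was at 150 ± 11.6 TPM in DK20FA and 381 ± 39.3 TPM after 12 h in BLSE (1.34, adjusted p = 7.53e-05), a medium in which VEGFA was not called. The coreceptor NRP2 (gene 100411420) rose over the same time from 29 ± 7.85 to 73.9 ± 0.0778 TPM (1.35). At pre-treatment 0 of 9 tested genes of the VEGF family and its receptors were called by limma (1 at an unadjusted p under 0.05), VEGFA not among them. Between day 6 and day 20, 3 of the 9 fell (background 13.8% lower). NRP2 went from 40.7 ± 3.37 to 1.09 ± 0.417 TPM (−4.33, adjusted p = 6.61e-14), FLT1 from 9.13 ± 2.55 to 2.49 ± 0.24 TPM (−1.52), and VEGFC by 1.60 on the log2 scale.

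Of the 24 tested hypoxia targets outside the members, 14 were lower and 3 higher at day 6 than in PESFA (background 24.9% higher and 20% lower). Among those that fell were BHLHE40 (−4.42), a transcriptional repressor, and LOX (−3.51), which cross-links collagen. LOX is also made by fibroblasts, and feeder or stromal markers fell in the same comparison, whose part was not tested. Between day 6 and day 20, 8 of the 24 fell and 3 rose (background 6.56% higher and 13.8% lower), with STC1 (−2.15), HMOX1 (−1.89) and LOX (−1.74) the largest falls.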

How the data were processed

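RNA was sequenced from 54 libraries, 2 for each of 27 conditions. The authors aligned reads with STAR, filtered the alignments by mapping quality with samtools, estimated abundance with RSEM and deposited TPM values per gene, in which read totals are lost. A count model such as the edgeR test of the study therefore could not be run. The genes of the list were matched by symbol, and HK2, SLC2A3, BNIP3L and ADM are not analysed here. The members and the other gene lists were chosen with earlier results of these data known. Values were taken as log2(TPM + 1), genes under 1.5 on that scale in every library were left out, and limma 3.58.1 in R 4.3.3 fitted a mean per condition over all 54 libraries (27 residual degrees of freedom, intensity trend). P-values were adjusted by Benjamini-Hochberg over 11197 genes, with a call under 0.01. They measure the spread between these duplicates.

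The named genes are VEGFA in every comparison and up to 5 of the largest rises and 5 of the largest falls among called members, any member as a level, and up to 3 genes of each other list. The other members listed without full statistics, and 2 comparisons (SOX17 + BLSE against BLSE at 12 h, BLSE at 96 h against 48 h), were added after their values were seen. Pearson correlation of duplicates was 0.977 to 0.994, 10146 to 12688 genes were above 0 per library, and 0 pairs of libraries were identical. The script was tested on simulated data. Alternatives were a replicate block, leaving out each library, a fit of only the libraries compared, no filter, no intensity trend, a pseudocount of 0.1, and quantile or median-ratio normalization.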

Additional observations from a re-analysis of the deposited data

Results flagged for a closer look

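The change over the first 12 h in aggregates was tested for a difference between BLSE + IWR1 after pre-treatment and BLSE from DK20FA, and 2 of 32 members differed by limma. BNIP3 differed by 1.30 and LDHA by 1.01 on the log2 scale, from changes of 0.64 and 0.25 in BLSE + IWR1, neither called, and of −0.66 (not called) and −0.75 (called) in BLSE. Line, medium, pre-treatment and IWR1 cannot be told apart in it. The summed feeder or stromal level fell from 2519 to 4763 TPM in pre-treated cells to 160 to 249 TPM in BLSE + IWR1 at 12 h, and its part was not tested.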

How the results depend on the processing

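The number of members called moved most where the spread could not be shared. Fitted on only the libraries compared, with 2 residual degrees of freedom, 22 of 25 comparisons had 0 members called by limma, while 6 to 22 members per comparison had an unadjusted p under 0.05. How many of all tested genes were under that unadjusted p was not counted. SOX17 + BLSE against BLSE had 4 called at 48 h and 14 at 96 h, and day 6 against PESFA had 10. Median-ratio scaling gave 2 members for BLSE + IWR1 + BMS at 12 h against pre-treated cells and 5 for day 70 against day 20. Without an intensity trend SOX17 + BLSE from 12 to 48 h gave 5 and BMS493 at 48 h gave 2, and without a filter the latter also gave 2. The cause was not tested. Median-ratio scaling shifted the median of all genes by −0.24 in SOX17 + BLSE against BLSE at 96 h, by 0.13 in day 70 against day 20 and by −0.16 in day 6 against PESFA.

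Leaving out 1 library gave 5 to 12 members for PESFA against DK20FA and 4 to 10 for pre-treatment. The first 12 h gave 2 to 6 in BLSE, 3 to 8 in SOX17 + BLSE, 3 to 9 in SOX17 + LSE, 1 to 2 in BLSE + IWR1 and 0 to 2 with BMS493, and the difference between BLSE + IWR1 and BLSE 1 to 3. From 12 to 48 h the ranges were 0 to 2 in BLSE, 4 to 6 in SOX17 + BLSE and 0 to 3 in BLSE + IWR1. SOX17 + BLSE against BLSE gave 2 each time at 12 h, 6 to 7 at 48 h and 15 to 21 at 96 h. Leaving out BMP4 gave 1 to 3 at 48 h and 3 to 8 at 96 h. BLSE + IWR1 against BLSE at 48 h gave 4 to 8, BMS493 1 to 4 at 48 h and 0 to 1 at 96 h, and BLSE + IWR1 against SOX17 + BLSE at 96 h 8 to 11. BLSE from 48 to 96 h gave 4 to 9, 96 h to day 6 0 each time, day 6 to day 20 11 to 15, day 20 to day 70 2 to 4 and PESFA to day 6 15 to 18. VEGFA changed sign only where it was not called. Over the libraries left out it ranged from −0.55 to 0.0217 for SOX17 + LSE against SOX17 + BLSE at 96 h, with the latter value without SOX17 + LSE replicate 1. It ranged from −0.12 to 0.40 for day 70 against day 20, with −0.11 and −0.12 without replicate 1 of day 20 and of day 70. For the difference over 12 h it ranged from −0.13, without BLSE + IWR1 replicate 1, to 0.68.

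Same-numbered libraries were not treated as pairs in the main fit. Over 351 pairs of conditions the deviations of same-numbered libraries had a median correlation of 0.00947 (−0.271 to 0.289), over 0.1 in 41. Among the comparisons made, the correlation was 0.207 for SOX17 + BLSE against BLSE at 12 h and 0.164 for pre-treated cells against PESFA. It was −0.249 for BLSE + IWR1 at 48 h against 12 h. With a replicate block, pre-treatment called 10 members and day 20 against day 6 called 16, and no named call was lost. TPM hold no depth, so precision rests on the duplicates.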
